A study of Rattus norvegicus with 12 samples.

Results

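The enzymes described here carry fatty acid beta-oxidation through its later steps and handle the double bonds that the core cycle cannot. The set was Hadha, Hadhb, Hadh, Acaa2, Decr1, Ech1, Eci1, Eci2 and Ehhadh, taken by name for their place in the pathway. A probe set, the group of array probes that reports 1 transcript, was taken where the platform annotation gave 1 of these symbols alone. This gave 14 probe sets for 9 genes, of 31042 probe sets and 14217 named genes in all. Of the 14, 13 passed a filter on low values that 18625 probe sets for 10623 genes passed, and each of the 9 genes had at least 1 of them. The exception was the dimmest of 3 probe sets of Hadha, which read 2.16 to 19.3 in diabetic arrays and 4.55 to 13.1 in non-diabetic arrays. Where a gene had several probe sets, the brightest stands for it unless another is named.

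The samples were remote myocardium of male Sprague-Dawley rats of 200 to 220 g, cut from the left ventricular free wall outside the infarct. Diabetic rats had received streptozotocin, a toxin to pancreatic beta cells, which make insulin, at 65 mg/kg and an age of 8 weeks. Non-diabetic rats had received citrate buffer. All were operated on 10 weeks later, with a sham operation or with ligation of the left anterior descending coronary artery. Hearts were sampled after sham and on days 1, 7, 14, 28 and 56 of ligation. The 12 Affymetrix arrays each held RNA pooled from 3 rats, and each condition had 1 array at each of 6 time points. No array therefore had a replicate of its own, and the p-values below rest on how the diabetes difference varied over the time points, not on variation between rats. The labels give the non-diabetic day 56 array an age of 22 weeks, against 26 weeks for the diabetic one, and call the tissue of both sham arrays post-infarct while the protocol describes a sham operation.

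In beta-oxidation an acyl-CoA is dehydrogenated, hydrated, dehydrogenated again and cleaved, so that each turn releases an acetyl-CoA. In mitochondria the last 3 of these steps on long chains are done by the trifunctional protein, whose alpha subunit is Hadha and beta subunit Hadhb. Hadh is the hydroxyacyl-CoA dehydrogenase and Acaa2 the thiolase for shorter chains. Unsaturated fatty acids need further enzymes: the dienoyl-CoA reductase Decr1, the dienoyl-CoA isomerase Ech1 and the enoyl-CoA isomerases Eci1 and Eci2. Ehhadh is the bifunctional hydratase and dehydrogenase of peroxisomes. The adult heart draws most of its ATP from fatty acids, and many of these genes are known targets of the nuclear receptor PPAR alpha, which fatty acids activate.

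Hadha and Hadhb lie head to head. In the GRCr8 assembly of RefSeq, Hadhb occupies chromosome 6 from 31873404 to 31907557 on the minus strand and Hadha from 31907801 to 31947434 on the plus strand, which leaves 243 bases between the annotated genes. That interval, chr6:31907558-31907800 on the plus strand, is shown because the subunits of 1 protein are read out of it in opposite directions. Capitals mark a GC box, the letters GGGCGG, found on the minus strand.
Hadhb_Hadha_interval: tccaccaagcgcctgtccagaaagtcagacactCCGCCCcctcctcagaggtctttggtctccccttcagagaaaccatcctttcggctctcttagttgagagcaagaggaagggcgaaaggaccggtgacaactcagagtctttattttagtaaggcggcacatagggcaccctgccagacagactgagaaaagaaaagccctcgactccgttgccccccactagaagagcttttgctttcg
The bases before the start of Eci1, chr10:13961000-13961249 on the plus strand, are shown because they held the only match, among the member promoters matched, to AGGTCA, the hexamer bound by nuclear receptors such as PPAR alpha. Capitals mark that hexamer, on the minus strand, and a GC box on the plus strand; the matches do not overlap.
Eci1_upstream: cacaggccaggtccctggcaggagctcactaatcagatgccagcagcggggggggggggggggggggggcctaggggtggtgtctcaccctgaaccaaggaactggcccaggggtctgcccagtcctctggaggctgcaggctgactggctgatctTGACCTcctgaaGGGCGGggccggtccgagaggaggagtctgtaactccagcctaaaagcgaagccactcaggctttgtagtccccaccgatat
RefSeq promoter sequences of 250 bases before the start were matched for 6 members, Hadha, Hadhb, Hadh, Eci1, Eci2 and Ehhadh, with the window of Eci2 inside its annotated gene and that of Hadhb reaching into its own. Both strands were searched. AGGTCA occurred in 1 of 6 member promoters and in 14.1% of all 33469 promoters of that length, and GGGCGG in 6 of 6 and in 30.5%. The windows of Hadha and Hadhb overlap, and the GC box shown in the interval counts for both. The member promoters held 53.6% to 64.8% G and C, against a median of 51.2% for all promoters. A match of letters describes the sequence only.

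Diabetic myocardium had a higher mean level of all 9 enzymes than non-diabetic myocardium, by 0.33 to 1.43 on the log2(intensity + 16) scale, with a median of 0.57 where the median of all 10623 genes was -0.01. All 9 were also above 0 with quantile scaling and with equal array medians. Decr1 alone passed the test across all probe sets, limma with Benjamini-Hochberg adjustment at a threshold of 0.05. In that comparison 28 probe sets, 0.15% of those tested, passed as higher in diabetic arrays. At an unadjusted p under 0.05 in the same limma fit, 8 of the 9 enzymes passed, beside 1974 of 18625 probe sets in either direction. Diabetic arrays lay above non-diabetic ones at all 6 time points for 2 members, Decr1 and Hadhb, and for 2.42% of all probe sets. For the other 7 members this held at 5 time points, a count for which the share of all probe sets was not taken.

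**Figure D1:**
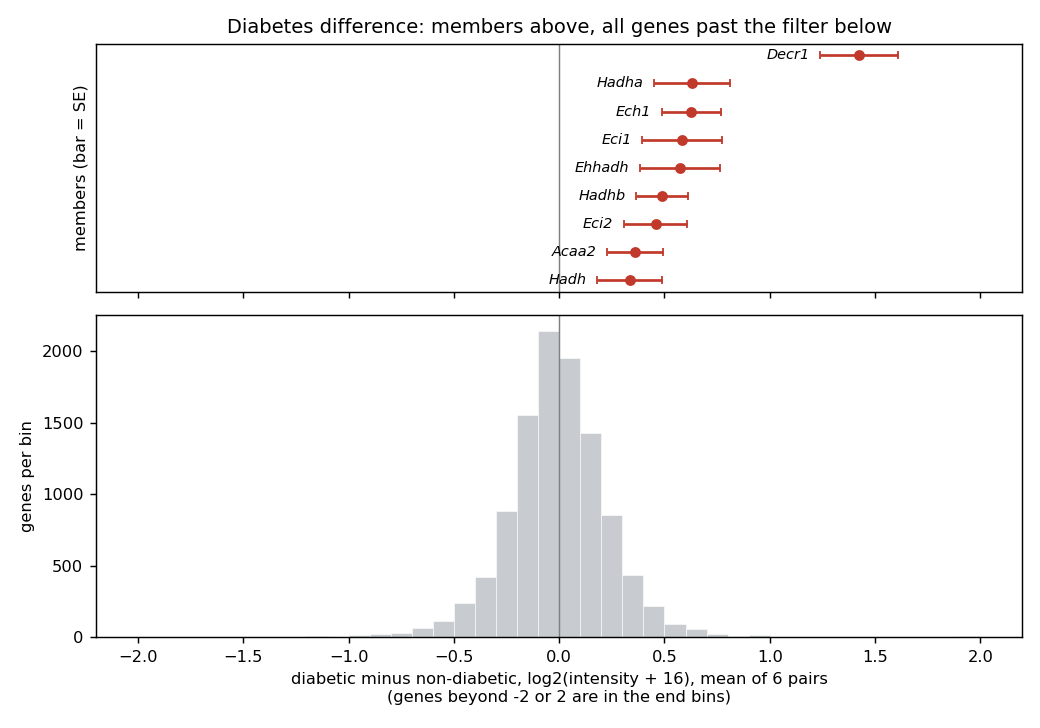
Upper panel, the diabetes difference of each of the 9 enzymes with its standard error (diabetic minus non-diabetic, log2(intensity + 16), mean of 6 pairs of arrays); lower panel, the number of genes per bin of the same quantity for all 10623 genes past the filter. Decr1 sits at 1.43 and the other 8 between 0.33 and 0.63, right of the bulk of genes, whose median is -0.01.

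Decr1, gene 117543, at chromosome 5 from 34208195 to 34236074 in GRCr8, had the widest separation. Its intensity in diabetic arrays was 3054 after sham and 2634, 2660, 1778, 3495 and 3423 on days 1, 7, 14, 28 and 56. In non-diabetic arrays it was 1623 after sham and 1536, 1063, 592, 1072 and 675 on the same days. The groups did not overlap: the lowest diabetic array, of day 14, read above the highest non-diabetic array, of sham. Such a separation was found in 23 probe sets, or 0.123% of those tested. The difference was 1.43 ± 0.19 (SE, n = 6 pairs), a 2.69-fold higher level, with a limma adjusted p of 0.0089. The call ended without the day 14 pair (1.40, adjusted p = 0.057) or the day 56 pair (1.25, adjusted p = 0.055), with adjusted p between 0.0059 and 0.087 over 16 alternatives. It also ended with the time point left out of the model (adjusted p = 0.056) and with sham and days 1 to 14 alone (1.14, adjusted p = 0.087).

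The subunits of the trifunctional protein had similar profiles over the arrays, and neither passed the test. Hadha read 2771 after sham and 2141, 2390, 1677, 4019 and 3763 on days 1, 7, 14, 28 and 56 in diabetic arrays. In non-diabetic arrays it read 1950 after sham and 2153, 1945, 1315, 1531 and 1562. The conditions were level on day 1 and farthest apart on days 28 and 56. Hadhb was brighter, with 5586 after sham and 4587, 4629, 3522, 6091 and 5623 on the 5 days in diabetic arrays. Its non-diabetic values were 3994 after sham and 4208, 4137, 2646, 3186 and 3178. Hadhb was higher in the diabetic array of every pair, yet the groups overlapped. The diabetic day 14 array, at 3522, read below the non-diabetic arrays of sham and days 1 and 7. The diabetes difference was 0.63 ± 0.18 for Hadha (1.55-fold, adjusted p = 0.225) and 0.49 ± 0.12 for Hadhb (1.40-fold, adjusted p = 0.175; SE, n = 6 pairs). A second Hadha probe set, much dimmer at 21.7 to 67.1 in diabetic and 17.5 to 39.2 in non-diabetic arrays, gave 0.37 with an adjusted p of 0.404.

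Hadh and Acaa2, which finish the turn on shorter chains, had the smallest differences in the set. Hadh read 3309 after sham and 2354, 3006, 1969, 3907 and 3889 on the 5 days in diabetic arrays, against 2889 after sham and 2755, 2810, 1756, 2110 and 2089 in non-diabetic arrays. The diabetic values lay within 0.23 of the non-diabetic ones on the log2 scale from sham to day 14 and 0.88 to 0.89 above them on days 28 and 56. Acaa2 read 4778 after sham and 3751, 4536, 2295, 4424 and 3560 in diabetic arrays, against 3786 after sham and 4016, 2578, 2195, 2611 and 2920 in non-diabetic arrays. It was the exception in timing, with its widest gap on day 7. The differences over the 6 pairs were 0.33 ± 0.15 for Hadh (adjusted p = 0.478) and 0.36 ± 0.13 for Acaa2 (adjusted p = 0.369).

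Among the auxiliary enzymes, Ech1 came nearest to the threshold after Decr1. Ech1 read 5288 after sham and 3474, 4560, 3565, 5709 and 5315 in diabetic arrays, against 2936 after sham and 3571, 3097, 2677, 2570 and 2943 in non-diabetic arrays. The non-diabetic values stayed in a narrow band, and the diabetic array was lower only on day 1, by 0.04 on the log2 scale. The difference was 0.63 ± 0.14 (1.55-fold, adjusted p = 0.125), and without the day 1 pair it was 0.76 and passed (adjusted p = 0.032, with 0.032 to 0.58 over 16 alternatives). Eci1, the mitochondrial isomerase, read 2851 after sham and 1869, 2316, 1471, 3045 and 2680 in diabetic arrays, against 1471 after sham and 2089, 1693, 1468, 1218 and 1379 in non-diabetic arrays. Its conditions were nearly level on day 14 and its difference was 0.58 ± 0.19 (adjusted p = 0.299). Eci2, which is found in mitochondria and peroxisomes, read 834 to 1340 in diabetic arrays, with a median of 1133, and 590 to 1231 in non-diabetic arrays, with a median of 803. These ranges overlapped over most of their width, and the difference was 0.46 ± 0.15 (adjusted p = 0.309).

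Ehhadh, the peroxisomal member, was the dimmest. It read 89.2 after sham and 27.7, 71.0, 52.1, 91.2 and 53.9 in diabetic arrays, against 47.3 after sham and 42.3, 52.1, 28.5, 26.0 and 23.9 in non-diabetic arrays. The diabetic array was the lower one on day 1 and the higher one at the other 5 time points. The difference was 0.57 ± 0.19 (1.49-fold, adjusted p = 0.314), and at this brightness the offset of 16 makes a fold smaller than it is.

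**Figure D2:**
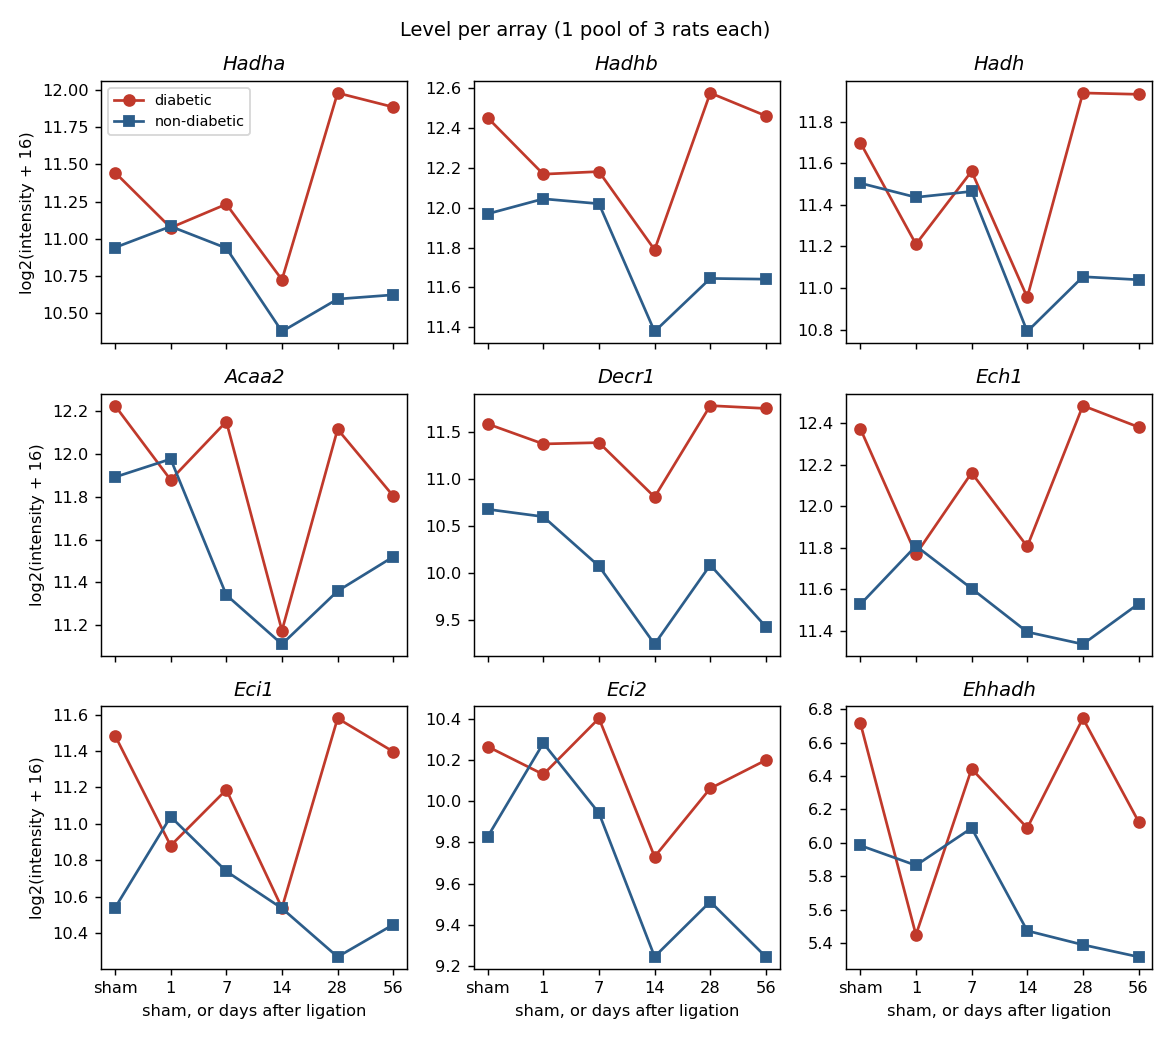
Level of each enzyme's brightest probe set as log2(intensity + 16), on vertical axes that differ in range and do not start at 0, after sham and on days 1 to 56 after ligation (time points evenly spaced), with 1 diabetic and 1 non-diabetic array per time point. Decr1 has the only pair of lines whose values do not overlap, with intensities of 1778 to 3495 in diabetic and 592 to 1623 in non-diabetic arrays, and the gap of most members is widest on days 28 and 56.

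The size of the diabetes difference is given next by time point, each of which is 1 pair of arrays. After sham all 9 lay above 0, with a median of 0.50 on the log2 scale. On day 1 only Decr1 (0.77) and Hadhb (0.12) did, and the median was -0.10, the same as the median of all genes on that day. With array medians made equal 5 of 9 lay above 0 on day 1, and with quantile scaling 4 of 9. On days 7 and 14 the members' medians were 0.45 and 0.41, with all 9 above 0 as deposited and 7 or 8 of 9 on day 14 under those scalings. The widest gaps came later: the median was 1.15 on day 28 and 0.89 on day 56, where the medians of all genes were -0.19 and 0.21. For 8 of the 9 enzymes the largest difference fell on day 28 or day 56.

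The late levels were also set against the sham array of the same condition. On that scale, the mean of days 28 and 56 was above sham for 6 of 9 enzymes in diabetic hearts and below sham for 9 of 9 in non-diabetic hearts. With array medians made equal only 3 of 9 were above sham in diabetic hearts, and with quantile scaling 8 of 9 were below it in non-diabetic hearts. The members' median was 0.06 in diabetic and -0.45 in non-diabetic hearts, beside -0.06 and -0.10 for all genes. With equal array medians it was -0.01 in diabetic and -0.43 in non-diabetic hearts, and with quantile scaling 0.13 in diabetic and -0.27 in non-diabetic hearts. Hadha stood at 0.49 relative to sham in diabetic hearts and at -0.33 in non-diabetic hearts. For Decr1 the values were 0.18 in diabetic and -0.92 in non-diabetic hearts. Acaa2, Eci2 and Ehhadh were below sham in both, at -0.27, -0.13 and -0.28 in diabetic and -0.45, -0.45 and -0.63 in non-diabetic hearts. Each of these values rests on 1 sham array per condition and was not tested. The labels give the sham and day 1 rats an age of 18 weeks. They give 19 weeks on day 7, 20 on day 14 and 22 or 26 on days 28 and 56. In comparisons of days 7 to 56 with sham, age, time since the injection and time since ligation therefore cannot be told apart. The same holds where the size of the diabetes difference is compared between days.

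**Figure D3:**
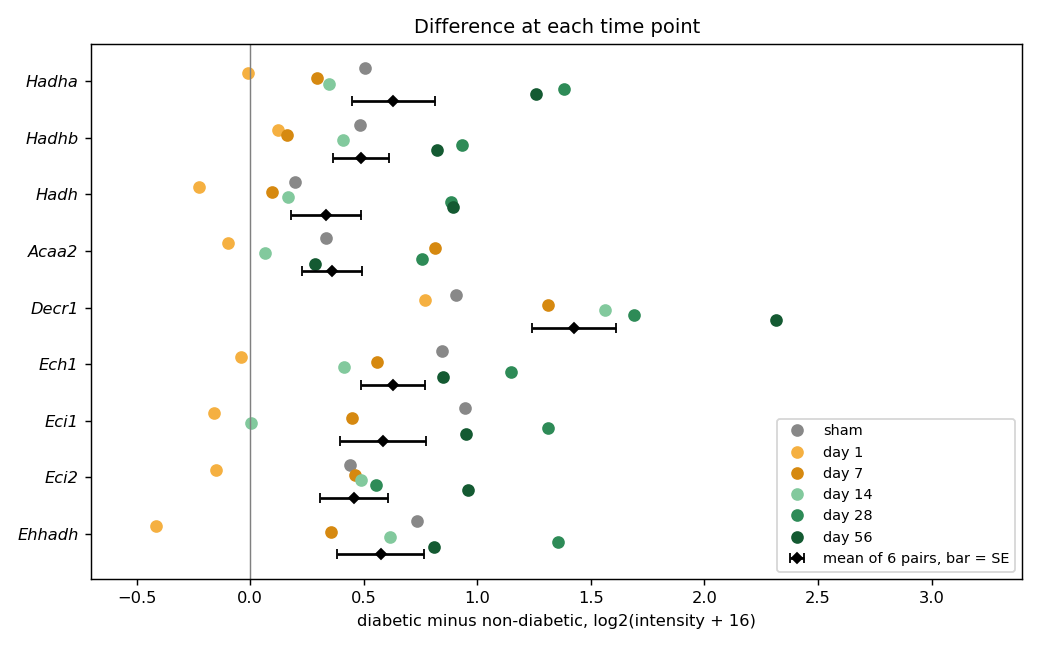
Diabetic minus non-diabetic log2(intensity + 16) of each enzyme (horizontal axis), 1 dot per time point, with the mean of 6 pairs as a diamond with its standard error. The median is -0.10 on day 1, where Decr1 is at 0.77, and 1.15 on day 28; Decr1 reaches 2.32 on day 56.

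Whether the difference on days 14, 28 and 56 exceeded that on days 1 and 7 was tested as a contrast with 3 residual degrees of freedom. The values were 0.96 ± 0.36 for Ehhadh, 0.85 ± 0.36 for Hadha and 0.81 ± 0.35 for Decr1 (SE), down to 0.01 ± 0.34 for Acaa2. All 9 were above 0, or 8 of 9 with quantile scaling or equal array medians, and their median was 0.61 beside 0.08 for all genes. That median was 0.95 without the day 14 pair and 0.43 with equal array medians. None of the 9 passed in limma, with adjusted p between 0.925 and 0.998, and 0% of all probe sets passed. At an unadjusted p under 0.05, 5 of the 9 passed, beside 5.23% of all probe sets. The arrays of days 1 and 7 also stood apart in the 3' to 5' difference of beta-actin, as given next. The contrast runs along that split, whose part in these values was not tested. Age and time since the injection also rose from days 1 and 7 to days 14, 28 and 56. This contrast cannot tell them apart from time since ligation.

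The log2 difference between the 3' and 5' probe sets of beta-actin, which is larger where 5' ends are under-represented, was 0.97 to 0.99 on the 4 arrays of days 1 and 7 and 0.37 to 0.59 on the 8 others. The same difference for Gapdh was 0.32 to 0.36 on days 1 and 7, within the 0.11 to 0.48 of the others, and did not split them. Array medians ranged from 28.8 to 34.7, and arrays correlated with each other at 0.880 to 0.987. Secondary probe sets of 2 members followed the beta-actin split. The second Hadh probe set read 137 and 151 in diabetic and 186 and 189 in non-diabetic arrays on days 1 and 7, and 2.25 to 16.6 on the other 8 arrays. On those 8 arrays its log2 values, 4.19 to 5.03, lay under the filter's 5.20, so it passed the filter only through days 1 and 7. Its p-values are therefore not separate support for a rise on those days. It was higher than sham by 2.62 ± 0.22 on day 1 and 2.69 ± 0.22 on day 7 (limma adjusted p = 9.0e-05 and 0.00012). With no filter the limma adjusted p was 5.2e-05 and 5.8e-05, and it was 4.4e-05 to 0.0014 over its alternatives. The bright Hadh probe set stood at -0.28 and -0.09 on those days. The second Eci1 probe set was dimmer on those days, with 32.1 to 43.4 on days 1 and 7 and 61.5 to 517 on the others, the highest being the non-diabetic day 56 array. It stood at -1.57 ± 0.46 on day 1 (adjusted p = 0.060) and fell by 1.77 ± 0.46 on day 7 (adjusted p = 0.039, with 0.010 to 0.068 over its alternatives).

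The probe sets of 1 gene thus did not always report the same profile. Over the 12 arrays the bright and the second probe set correlated at 0.81 for Hadha and 0.60 for Acaa2, but at 0.05 for Hadh and -0.05 for Eci1. Their diabetes differences were -0.15 for the second Hadh probe set, 0.38 for that of Acaa2 and -0.12 for that of Eci1, with adjusted p of 0.708, 0.539 and 0.902. The second Acaa2 probe set was led by 1 array, diabetic sham at 263, where the other 11 read 50.7 to 161. Which probe set follows the coding transcript was not tested.

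**Figure D4:**
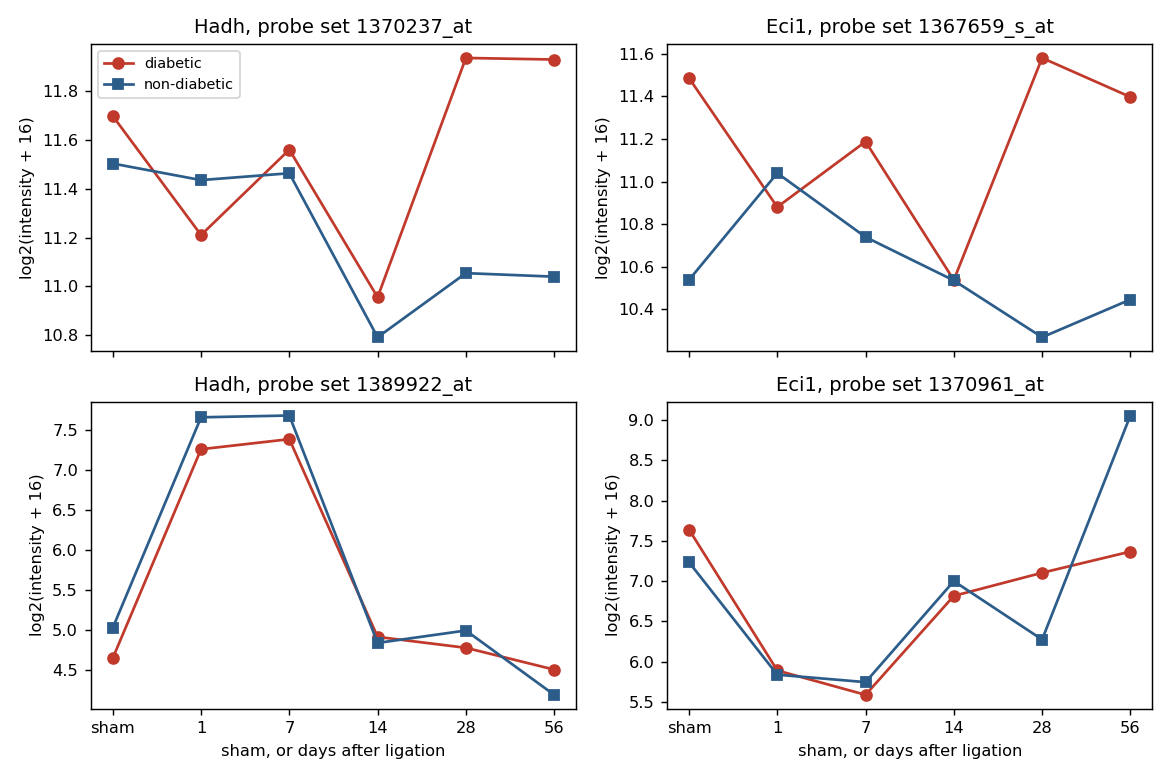
Level, as log2(intensity + 16) on axes that differ in range, of the brightest (upper row) and the second (lower row) probe set of Hadh (left) and Eci1 (right) after sham and on days 1 to 56 after ligation, in diabetic and non-diabetic arrays. The second Hadh probe set has intensities of 137 to 189 on days 1 and 7 and 2.25 to 16.6 elsewhere, a step that the bright one does not show.

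Against sham, over both conditions, none of the 9 enzymes passed in limma on any day by its brightest probe set. The shares of all probe sets that passed were 7.47% on day 1, 7.65% on day 7 and 0% on each of days 14, 28 and 56. The 3' to 5' difference of beta-actin was 0.97 to 0.99 on the arrays of days 1 and 7. On the sham arrays it was 0.48 (diabetic) and 0.50 (non-diabetic). The contrasts of days 1 and 7 with sham thus run along that split, whose part in these shares was not tested. At an unadjusted p under 0.05, 4 enzymes passed on day 14, beside 11.7% of all probe sets. At that level 0 enzymes passed on each of the other days, where the shares of all probe sets were 25.5% on days 1 and 7, 3.62% on day 28 and 16.4% on day 56. On day 14 all 9 had values under sham, from -0.35 to -1.10, with a median of -0.63 where that of all genes was 0.05. Decr1 stood at -1.10 ± 0.32 and Acaa2 at -0.92 ± 0.23 (SE, 2 arrays against 2), with adjusted p between 0.402 and 0.564 over the set. Day 14 held the lowest value of the series for 7 of 9 enzymes in diabetic arrays and for 5 of 9 in non-diabetic arrays, or for 8 of 9 and for 4 or 6 of 9 under the other scalings. The medians on days 1, 7, 28 and 56 were -0.13, -0.09, -0.11 and -0.16, and quantile scaling turned that of day 56 to 0.04. With equal array medians those of days 7 and 28 were -0.25 and -0.17. For the mean of the 5 days the median was -0.22, with all 9 below 0, and none passed in limma where 0.107% of all probe sets did. At an unadjusted p under 0.05, 1 of 9 passed, near the 10.9% of all probe sets. These contrasts share the 2 sham arrays.

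The members' profiles resembled each other. Over the 12 arrays the 36 pairs correlated at 0.62 to 0.96, with a median of 0.81; the arrays share their time points and condition, so this is a description. Hadha with Hadhb and Ech1 with Eci1 were the closest pairs, and Acaa2 with Ehhadh the least close. Among 10614 other genes, those nearest to the members' mean profile were Bfar at 0.95, Clpx, a chaperone subunit of a mitochondrial protease, at 0.94, Usp36, a deubiquitinase, at 0.92, and Fam135a at 0.92. Hsdl2, a dehydrogenase-like protein of peroxisomes, and Rbp7, a retinol-binding protein, followed at 0.89 each. Nearest to Decr1 alone were Hadhb at 0.92, the mitochondrial acyl-CoA thioesterase Acot2 at 0.92 and the syntaxin Stx4 at 0.91. Of these genes Rbp7 (1.72, adjusted p = 0.035) and Acot2 (1.25, adjusted p = 0.023) passed the diabetes test.

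Other steps of the pathway gave a mixed picture in the diabetes comparison. For the first steps, the acyl-CoA dehydrogenases, the hydratase and the electron transfer flavoproteins, 8 of 11 genes were above 0 and none passed, with a median of 0.23 on the log2 scale. The smallest p belonged to Etfdh, which passes electrons to ubiquinone (0.42, adjusted p = 0.404), and the dehydrogenase Acad11 (0.54, adjusted p = 0.438). Of 15 genes of the carnitine shuttle and fatty acid activation 12 were above 0 and none passed, with a median of 0.17. There the acyl-CoA synthetase Acsl6 stood at -0.98 (adjusted p = 0.072) and the carnitine palmitoyltransferase Cpt1a, which controls entry into mitochondria, at 0.99 (adjusted p = 0.078).

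Other peroxisomal genes had a median near 0, with 8 of 17 measured members of 23 above it. In that list Nudt7, which hydrolyses coenzyme A in peroxisomes, was the 1 gene that passed (1.37, adjusted p = 0.014). Among the short-chain and ketone body enzymes 2 of 10 measured names of 13 were above 0, with a median of -0.06. Bdh1, which interconverts the ketone bodies, fell by 1.75 (adjusted p = 0.024) and was the 1 gene of that list that passed. Citric acid cycle and mitochondrial genes had 13 of 21 measured members of 23 above 0, a median of 0.02 and none past the test. The smallest p there belonged to Suclg2, a subunit of succinyl-CoA ligase (0.35, adjusted p = 0.472), and Tfam, which packages and transcribes mitochondrial DNA (0.44, adjusted p = 0.480).

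The regulators of these genes, nuclear receptors and their partners, had 9 of 16 measured members of 19 above 0, a median of 0.02 and none past the test. The lipase Pnpla2, which releases fatty acids from stored fat, was at 0.67 (adjusted p = 0.216) and the corepressor Nrip1 at -0.21 (adjusted p = 0.552). Ppara and Rxra were among those with no probe set past the filter. Of 15 other genes known to respond to fatty acids 14 were measured, 10 were above 0 and 5 passed as higher in diabetic arrays. The median of the 14, 0.60, falls in a gap between Plin2, a lipid droplet coat protein, at 0.21 and Cpt1a at 0.99. With 1 gene more or less it would move to either value. Those that passed included the thioesterases Acot1 (2.45, adjusted p = 4.9e-05) and Acot2, Txnip, which binds thioredoxin (1.21, adjusted p = 0.0089), and Pdk4, the kinase that inhibits pyruvate dehydrogenase (2.46, adjusted p = 0.017). The fifth gene that passed was Angptl4, a secreted inhibitor of lipoprotein lipase (2.73, adjusted p = 0.042). It belongs to the list, and it and Plin2 are named here after their values were seen. Some genes are in more than 1 list, such as Cpt1a and Fabp3, and no difference between lists was tested.

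**Figure D5:**
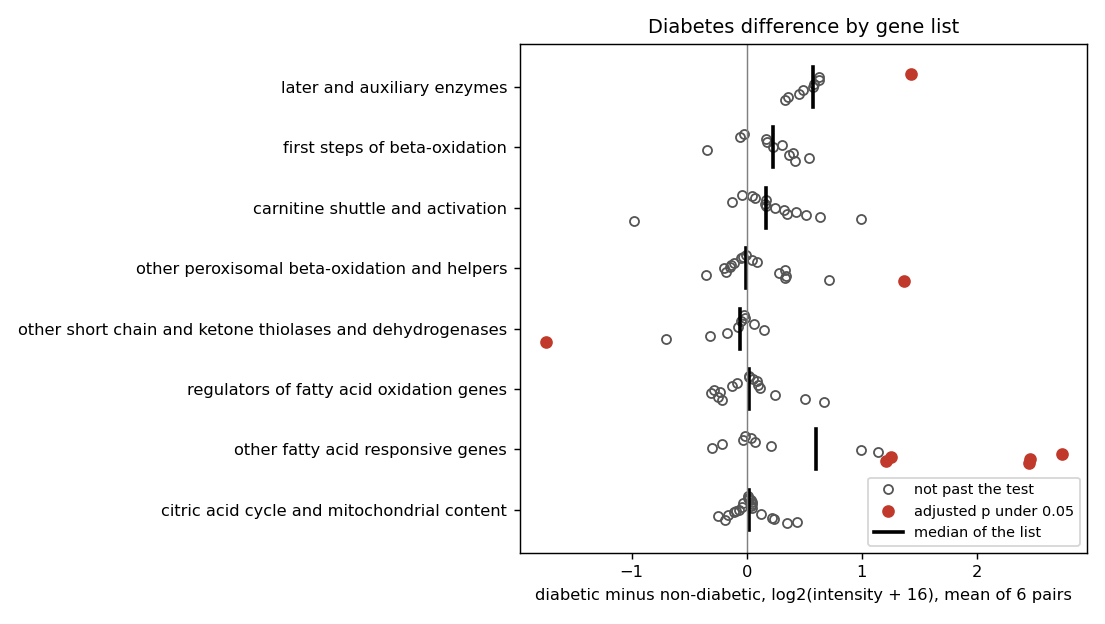
Diabetes difference (diabetic minus non-diabetic, log2(intensity + 16), mean of 6 pairs) of each measured gene of the 9 enzymes and of 7 pathway lists, 1 point per gene (filled where it passed the test) with the list's median marked by a bar. The enzymes lie between 0.33 and 1.43 with a median of 0.57, the other fatty acid responsive genes have a median of 0.60 in a gap between genes at 0.21 and 0.99, and the other lists have medians between -0.06 and 0.23.

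Markers of the heart muscle cell were bright, with 14 of 15 past the filter and a summed intensity of 61869 to 83047 in diabetic and 70575 to 80279 in non-diabetic arrays. Of these 14, 5 were above 0 in the diabetes comparison, with a median of -0.02. They ran from -0.73 for Myh6 (limma adjusted p = 0.091) to 0.39 for Ttn (limma adjusted p = 0.629). Myh6 read 1790 to 4766 in diabetic and 5406 to 6761 in non-diabetic arrays. Myh7 went the other way, at 0.26 (limma adjusted p = 0.352). In tissue such as this, fewer cells of a type and less RNA per cell cannot be told apart. White adipocytes also oxidise and store fatty acids. Of their 8 markers 3 passed the filter: Fabp4 (0.34) and Lipe (0.67) above 0 and Cfd (-0.11) below. Adipoq, Plin1, Lep, Retn and Cidec did not pass. The sums were 2852 to 5855 in diabetic and 2021 to 4463 in non-diabetic arrays. Most of each sum was Fabp4, at 2580 to 5454 in diabetic and 1888 to 3927 in non-diabetic arrays. Of 5 brown adipocyte markers Ucp1, Dio2 and Prdm16 did not pass, and the sums were 1285 to 2042 in diabetic and 1281 to 1756 in non-diabetic arrays. Most of each was Cidea, at 1168 to 1651 in diabetic and 1142 to 1502 in non-diabetic arrays. The rest was Ppargc1a, which is also in the list of regulators. Endothelial markers had 1 of 8 above 0, with sums of 2729 to 3218 in diabetic and 2963 to 3953 in non-diabetic arrays. No marker of these types, or of fibroblasts, macrophages, neutrophils or red cells, passed the diabetes test in limma, and the part of cell makeup in the enzymes' differences was not tested.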

How the data were processed

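RNA of 12 pools of 3 rats was measured on Affymetrix rat arrays. The authors deposited 1 linear intensity per probe set and array, made with Affymetrix Expression Console and PLIER, according to the submitters' processing notes. Scaling, background step and software versions were not given in the sources used. Intensity has no unit in molecules, and background shrinks differences of dim probe sets. The number of arrays limits the precision.

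Of 31099 probe sets, 57 controls were left out. Platform annotation gave 20826 probe sets 1 symbol, 436 several and 9780 none. Values were taken as log2(intensity + 16), and probe sets with a mean above the 40th percentile (5.20) were kept. limma 3.58.1 in R 4.3.3 fitted diabetes with the time point as a block (5 residual degrees of freedom), with a trended variance and Benjamini-Hochberg adjustment over 18625 probe sets at 0.05. The time point pairs the arrays, since each pair shares its operation and day per the labels. For day 56 the labelled ages differ within the pair, and the non-diabetic one, 22 weeks, is also the age labelled on day 28. That pair is therefore less certain than the others. A model with separate diabetes terms for sham, days 1 and 7, and days 14 to 56 gave the late minus early contrast. Within a pathway list, up to 4 genes past the threshold were named by smallest p, otherwise the 2 with the smallest p; genes alike in profile were ranked by Pearson r over 12 arrays. The members, lists and tests were chosen with earlier results of these data known, and lists were described by counts and medians only. The procedure was tested on simulated data. Alternatives covered the offset, filter, scaling, variance model, probe set choice and each pair left out; 1, with sham and days 1 to 14 alone, was chosen after seeing the data.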

Additional observations from a re-analysis of the deposited data

How the results depend on the processing

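The count of the 9 enzymes past the diabetes test was 1 as reported and 0 to 2 when each time point pair was left out in turn: 2 without the day 1 pair, which added Ech1, and 0 without the day 14 or the day 56 pair. It was 0 with the time point, which pairs the arrays, left out of the model, and 0 with sham and days 1 to 14 alone. Decr1 passed in 12 of 16 alternatives, with a difference of 1.14 to 1.62. The median over the enzymes kept its sign, at 0.31 to 0.80. With second probe sets in place of the brightest, 1 gene (Hadh) passed on day 1 against sham and 2 (Hadh and Eci1) on day 7. The second Hadh probe set passed the filter only through those 2 days. The second Eci1 probe set passed on day 7 in 7 of 11 alternatives and on day 1 in 2 of 11, without the day 28 pair (adjusted p = 0.023) or the day 56 pair (adjusted p = 0.016). On day 7 it did not pass with an offset of 64 (adjusted p = 0.068), the filter at the 60th percentile (0.050), or without the day 1 or day 14 pair (0.056 each). The median for the mean of the 5 days was -0.20 with that filter, -0.16 with quantile scaling, -0.27 with equal array medians and -0.25 to -0.12 with a pair left out, the last without day 14. The filter at the 60th percentile left out Ehhadh, whose mean level lies at percentile 59.7, so the median with that filter is over the other members. The cause of the other shifts was not tested. Scaling moved the median of all genes on day 7 against sham to -0.02 (quantile) or 0.02 (equal medians), where it was 0.16 as deposited, and that of the day 56 diabetes difference to 0.06 or 0.12, where it was 0.21. The count past the late minus early test was 0 in all 15 alternatives, the slope on log2 of the day among them. Dim probe sets limit what can be seen of Ehhadh and of the second probe sets.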
